A study of Mus musculus with 6 samples.

Results

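Matrix metalloproteinases (MMPs) are zinc-dependent enzymes that cut collagens, elastin, basement membrane and many cell-surface and signalling proteins, and the tissue inhibitors of metalloproteinases (TIMPs) block them by binding the active site. Described here are 10 genes of this system, chosen by symbol from the 55335 genes of the table: the proteases *Mmp8*, *Mmp9*, *Mmp12*, *Mmp13*, *Mmp14*, *Mmp19* and *Mmp27*, and the inhibitors *Timp1*, *Timp2* and *Timp3*. Their RNA was measured by RNA-seq in 6 libraries of bone marrow-derived macrophages (BMDMs), which are macrophages grown from marrow cells, here for 7 days with 25 ng/ml M-CSF. In 3 libraries (WT) the BMDMs had been kept for 24 h with neutrophils of *Cd177* wild-type mice, and in 3 (KO) with neutrophils of *Cd177*-/- mice. In both groups the neutrophils were purified by MACS from contused spinal cord at 3 dpi (days after injury), the BMDMs themselves were *Cd177* WT, the mice of the study were adult C57BL/6 males, and the macrophages were recovered by FACS as Ly6G-negative cells. The contrast therefore varied the genotype of the neutrophils and not of the cells sequenced, the system was a direct co-culture on a dish, and there was no library of BMDMs without neutrophils. The labels do not say that libraries of a group came from separate cultures or animals, so the p-values measure the spread between these libraries, which may be technical.

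Macrophages make several MMPs, and the amount of active enzyme depends on transcription, on removal of a propeptide that keeps the enzyme latent, and on the TIMPs around it. In injured spinal cord and other wounds, MMPs of leukocytes are known for degrading vessel basement membrane and for remodelling matrix during repair. Only RNA was measured here, and neither enzyme activity nor protein was.

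The values were FPKM, fragment counts divided by transcript length and by library total, which allow levels of different genes to be set side by side. The step between low values implied 17617855 to 20287841 fragments per library if each step is a fragment. *Cd177*, which encodes the surface protein missing from the KO neutrophils, had 0.544, 0.309 and 0.521 FPKM in libraries labelled WT. It had 1.79, 1.84 and 2.28 FPKM in libraries labelled KO, a higher level (log2 difference 1.37). The knockout was not in the sequenced cells, but this level runs against the labels, and every direction below is that of the libraries as labelled. All 10 macrophage markers were expressed, 3 of them higher and 2 lower in KO, with a summed level of 8136 to 9860 FPKM in WT and 9385 to 10383 FPKM in KO. These counts, and those of the neutrophil markers that follow, stand beside 27.1% called higher and 10.5% called lower of all tested genes. Of 12 neutrophil markers, 9 were abundant enough to test and these 9 were higher in KO (*Cxcr2* and *Cd177* reached the level for testing only through the KO libraries). The 12 together summed to 517 to 529 FPKM in KO against 162 to 228 FPKM in WT. *Ly6g*, the marker of the sort, was listed at 0 in the 3 WT libraries and at 0.66, 0.547 and 0.403 FPKM in the KO libraries. In the libraries numbered 3 of both groups many genes deviated together, with a correlation of their deviations of 0.264 over 13367 genes.

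All 10 genes averaged over 0.5 FPKM, the level required for testing, in each group and were tested, with limma, after adding 0.5 to the FPKM and taking log2, which compresses the differences of weakly expressed genes. In KO, 6 of the 10 were lower (*Mmp8*, *Mmp13*, *Mmp14*, *Mmp19*, *Timp1* and *Timp3*), 2 were higher (*Mmp27* and *Timp2*), and *Mmp9* and *Mmp12* did not reach an adjusted p of 0.05. Over all 13367 genes tested, 37.6% were called, 27.1% as higher and 10.5% as lower. The median log2 difference, KO minus WT, was -0.50 for the 10 genes and 0.19 for all tested genes. The excess of higher calls over all genes depended on scaling, since 72.0% of the called genes were higher in the FPKM as deposited, 47.7% after median-of-ratios scaling, 49.6% after upper-quartile scaling and 55.7% after quantile normalization. Differences are therefore also given below relative to the median of 0.19 where they are small. The libraries of the 2 groups did not overlap for any of the 10 genes, which was so for 51.9% of all tested genes. With the study's threshold, a fold change above 2 with an unadjusted p under 0.05, 5 of the 10 genes passed (*Mmp8*, *Mmp13*, *Mmp19*, *Mmp27* and *Timp1*), beside 11.1% of all tested genes. In such bulk samples, fewer cells that express a gene and less RNA of it per cell cannot be told apart.

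**Figure D1:**
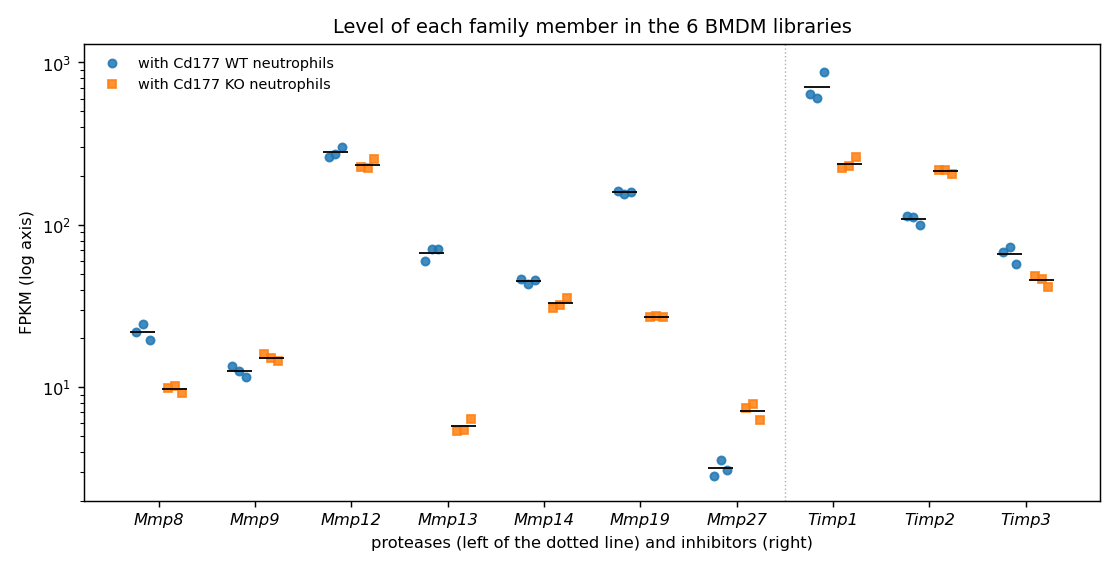
FPKM of the 7 proteases and 3 inhibitors in each library on a log axis. Circles are the 3 WT libraries, squares the 3 KO libraries and bars their means. The widest gap is that of Mmp13, at 60.2 to 71.4 FPKM in WT and 5.40 to 6.41 FPKM in KO, while Mmp27 and Timp2 lie higher in KO.

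The secreted collagenases among the 10 genes, which can cut intact fibrillar collagen, were both lower in KO. *Mmp13*, collagenase-3, was at 60.2, 70.8 and 71.4 FPKM in the WT libraries and at 5.40, 5.46 and 6.41 FPKM in the KO libraries. Every KO library thus lay about an order of magnitude under every WT library, with means of 67.5 ± 6.31 and 5.75 ± 0.564 FPKM (SD, n = 3) and a ratio of 11.7. The log2 difference was -3.44 (SE 0.11, 95% interval -3.70 to -3.18, limma adjusted p = 3.55e-06), greater in size than that of 99.5% of tested genes. *Mmp8*, the collagenase best known from the granules of neutrophils, was at 21.8, 24.5 and 19.5 FPKM in WT and at 9.88, 10.2 and 9.27 FPKM in KO. Its WT mean of 21.9 ± 2.51 FPKM was 2.24 times the KO mean of 9.80 ± 0.488 FPKM (log2 difference -1.12, SE 0.11, limma adjusted p = 0.000359). *Mmp8* and the 9 tested neutrophil markers went in opposite directions. These markers were higher in KO by 0.69 to 3.09 on the log2 scale, most of all the granule genes *Ltf* (lactoferrin, 3.09) and *Ngp* (3.02). The granule protease gene *Elane*, too low to test, averaged 0.317 FPKM in WT and 0.138 FPKM in KO, with overlapping groups. The part of neutrophil RNA in the level of *Mmp8* was not tested.

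*Mmp12* and *Mmp9* differed least. *Mmp12*, the macrophage elastase, was the most abundant protease in both groups, at 261.5, 273.5 and 303.6 FPKM in WT and 226.4, 225.1 and 253.6 FPKM in KO. The lowest WT library lay above the highest KO library, but the gap was narrow beside the spread (279.6 ± 21.7 against 235 ± 16.1 FPKM), and the log2 difference of -0.25 (95% interval -0.48 to -0.02) did not reach the threshold (limma adjusted p = 0.0803). Relative to the median of all genes it was -0.44. After median-of-ratios scaling the same gene was called, with a log2 difference of -0.48 (limma adjusted p = 0.0182). *Mmp9*, gelatinase B, which cuts denatured collagen and type IV collagen and is stored in neutrophil granules as well as made by macrophages, was at 13.5, 12.7 and 11.5 FPKM in WT and 16.1, 15.1 and 14.5 FPKM in KO. Its log2 difference of 0.27 (95% interval 0.05 to 0.49, limma adjusted p = 0.0605) was 0.08 relative to the median of all genes, and it was 0.05 after median-of-ratios scaling. The higher neutrophil markers of the KO libraries stand beside this value too, and their part in it was not tested.

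Among the remaining proteases, *Mmp19* was lower in KO by far more than its spread, *Mmp14* was moderately lower and *Mmp27* was higher. *Mmp19*, a secreted MMP that cuts basement membrane components, was at 163, 156 and 159 FPKM in WT and 27.0, 27.4 and 27.2 FPKM in KO. Libraries of each group nearly coincided (159 ± 3.43 and 27.2 ± 0.196 FPKM, SD, n = 3), and the WT mean was 5.85 times the KO mean (log2 difference -2.53, SE 0.07, limma adjusted p = 2.08e-06). *Mmp14* encodes MT1-MMP, a membrane-anchored collagenase that also activates pro-MMP2 at the cell surface. It was at 46.1, 43.2 and 46.0 FPKM in WT and 30.7, 32.2 and 35.6 FPKM in KO, with a log2 difference of -0.46 (SE 0.09, limma adjusted p = 0.00682), or -0.64 relative to the median of all genes. *Mmp27*, a little-studied member of the family, was the least abundant protease in WT, at 2.85, 3.56 and 3.11 FPKM, and was at 7.41, 7.85 and 6.26 FPKM in KO. It was the only one of the 7 proteases called higher, with a KO mean 2.26 times the WT mean (log2 difference 1.06, SE 0.12, limma adjusted p = 0.000854).

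The inhibitors moved apart. *Timp1*, an inducible secreted inhibitor that binds pro-MMP9 and blocks membrane-type MMPs poorly, was at 642, 608 and 876 FPKM in WT and 223, 231 and 262 FPKM in KO. In WT it was the most abundant of the 10 genes and exceeded 99.6% of tested genes, and WT replicate 3 stood above the other 2 WT libraries. The WT mean of 709 ± 146 FPKM was 2.97 times the KO mean of 239 ± 20.2 FPKM (log2 difference -1.55, SE 0.15, limma adjusted p = 0.000426), and the difference was -1.39 without WT replicate 3. *Timp2*, usually expressed constitutively, blocks MMPs broadly and also bridges MT1-MMP to pro-MMP2 during activation of the latter. It was at 112.9, 111.6 and 100.2 FPKM in WT and 216, 219 and 207 FPKM in KO, 1.98 times higher by the means, with a log2 difference of 0.98 (SE 0.08, limma adjusted p = 0.000209), or 0.79 relative to the median of all genes. *Timp3*, which is bound to matrix and also inhibits ADAM and ADAMTS proteases, was at 68.0, 73.5 and 57.6 FPKM in WT and 48.2, 46.6 and 41.6 FPKM in KO. All KO libraries lay below all WT libraries (log2 difference -0.54, SE 0.11, limma adjusted p = 0.0109), and relative to the median of all genes the difference was -0.72.

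**Figure D2:**
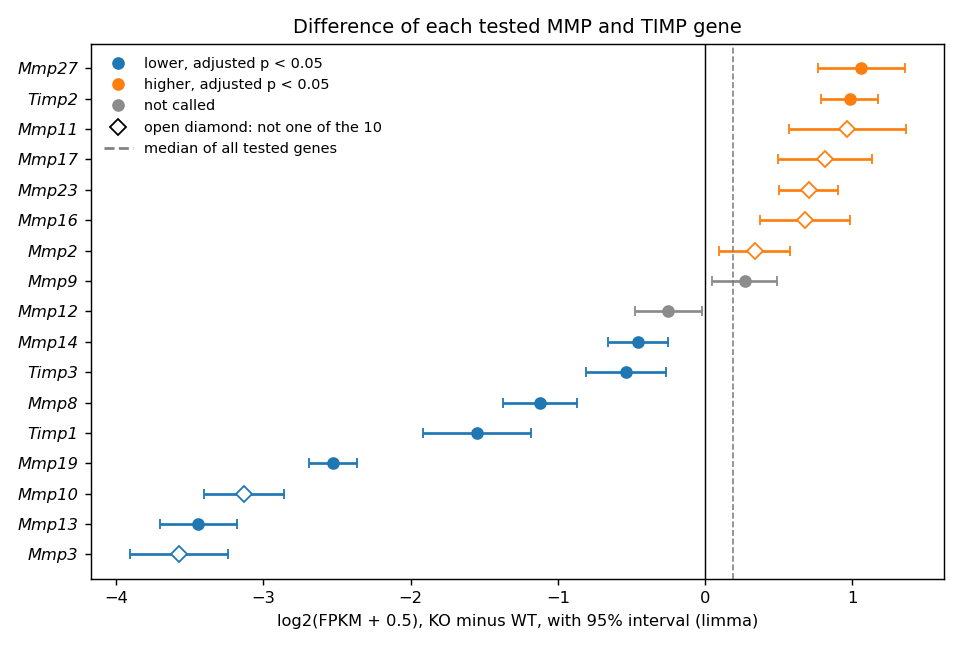
Log2 difference (KO minus WT, on log2(FPKM + 0.5)) of the 17 MMP and TIMP genes abundant enough to test, with 95% intervals from limma. Filled circles are the 10 genes chosen and open diamonds the other 7, and the dashed line marks the median of all tested genes at 0.19. Mmp3, Mmp13, Mmp10 and Mmp19 lie furthest to the left, and Mmp27 and Timp2 furthest to the right. Mmp3, Mmp10, Mmp16 and Mmp17 averaged under 0.5 FPKM in the group where they were lower.

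The order of abundance changed with these differences. In WT it ran *Timp1*, *Mmp12*, *Mmp19*, *Timp2*, *Mmp13*, *Timp3*, *Mmp14*, *Mmp8*, *Mmp9* and *Mmp27*, where the ranges of *Mmp13* and *Timp3* overlapped. In KO it ran *Timp1*, *Mmp12*, *Timp2*, *Timp3*, *Mmp14*, *Mmp19*, *Mmp9*, *Mmp8*, *Mmp27* and *Mmp13*, where the ranges of *Timp1* and *Mmp12*, and of *Mmp27* and *Mmp13*, overlapped. The 7 proteases together came to 589 ± 23.0 FPKM in WT and 333 ± 17.2 FPKM in KO, and the 3 inhibitors to 883 ± 131 and 498 ± 11.3 FPKM. Both sums were lower in each KO library than in any WT library. *Mmp12* made up 47.4 ± 1.81% of the protease sum in WT and 70.5 ± 1.2% in KO, *Mmp19* 27.1 ± 1.40% and 8.19 ± 0.414%, and *Mmp13* 11.4 ± 0.788% and 1.73 ± 0.0785%. Of the inhibitor sum, *Timp1* made up 79.8 ± 4.33% in WT and 47.9 ± 2.96% in KO, and *Timp2* 12.5 ± 2.44% and 43.0 ± 2.09%. *Timp1* exceeded *Timp2* in every library, by a smaller margin in the KO libraries, where it held 45.8%, 46.6% and 51.3% of the sum against 44.3%, 44.1% and 40.6% for *Timp2*.

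A pair of ratios set an inhibitor against a protease that it is known to bind. There were 47.6, 48.0 and 76.1 FPKM of *Timp1* per FPKM of *Mmp9* in the WT libraries and 13.9, 15.3 and 18.1 in the KO libraries. There were 2.45, 2.58 and 2.18 FPKM of *Timp2* per FPKM of *Mmp14* in WT and 7.05, 6.80 and 5.81 in KO. The first ratio was thus lower and the second higher in every KO library. On the log2 scale, protease over inhibitor differed between KO and WT by 1.82 for *Mmp9* to *Timp1* and by -1.44 for *Mmp14* to *Timp2*. A two-sided exact permutation test gave p = 0.1 for each, which is the smallest that 3 libraries against 3 can give and which stayed 0.1 after adjustment over the 2 ratios. Ratios within a library do not depend on scaling between libraries.

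**Figure D3:**
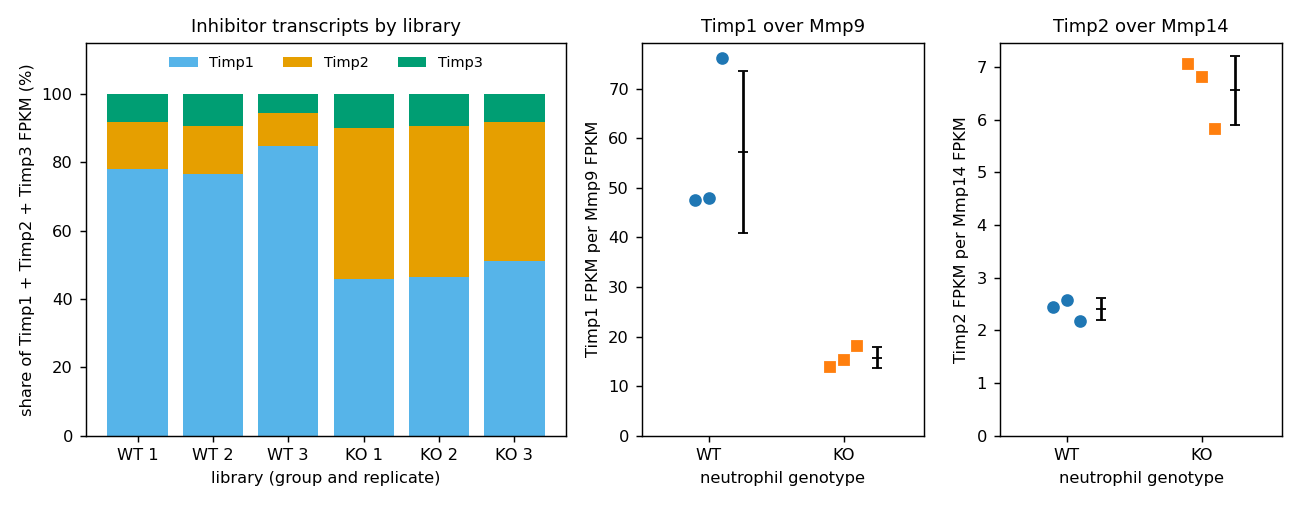
Left, share of the summed FPKM of Timp1, Timp2 and Timp3 held by each, in percent, in each library (WT 1 to 3, KO 1 to 3). Middle and right, FPKM of Timp1 per FPKM of Mmp9 and of Timp2 per FPKM of Mmp14 in each library, with the mean and SD of 3 libraries beside the points. The Timp2 share is 9.69% to 14.1% in WT and 40.6% to 44.3% in KO.

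Of the 10 genes, *Mmp8*, *Mmp12*, *Mmp13* and *Mmp27* lie in a tandem cluster of MMP genes on mouse chromosome 9. In GENCODE M21 (build GRCm38) the cluster spans 427 kb, from 7272514 to 7699585, with 10 MMP genes and no other protein-coding gene between them. In order of position these are *Mmp13*, *Mmp12*, *Mmp1b*, *Mmp3*, *Mmp1a*, *Mmp10*, *Mmp8*, *Mmp27*, *Mmp20* and *Mmp7*. *Mmp3*, stromelysin-1, which activates other pro-MMPs, was at 5.46, 6.78 and 6.50 FPKM in WT and at 0.0934 and 0.109 FPKM in KO replicates 1 and 2, and it was listed at 0 in KO replicate 3. *Mmp10*, stromelysin-2, was at 5.90, 6.08 and 6.87 FPKM in WT and at 0.230, 0.305 and 0.283 FPKM in KO. The log2 differences were -3.57 for *Mmp3* and -3.13 for *Mmp10*. Both genes reached the level for testing only through WT, so these values are a description, and they depend on the value added before taking log2. With 0.1 added in place of 0.5 they were -5.31 and -4.10, and with 1 added -2.76 and -2.51, while *Mmp13* had -3.53 and -3.34. *Mmp8* and *Mmp27*, whose starts lie 12.9 kb apart and which are read in the same direction, went opposite ways. *Mmp1a* and *Mmp7* were listed at 0 in all 6 libraries, and *Mmp1b* and *Mmp20* reached at most 0.0726 and 0.0156 FPKM. Of the 6 tested genes of the cluster, *Mmp8* and *Mmp13* were thus called lower in KO, *Mmp27* was called higher and *Mmp12* was not called. *Mmp3* and *Mmp10* were tested only through WT, so that some difference between their groups was built in. Over all tested genes 10.5% were called lower and 27.1% higher.

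**Figure D4:**
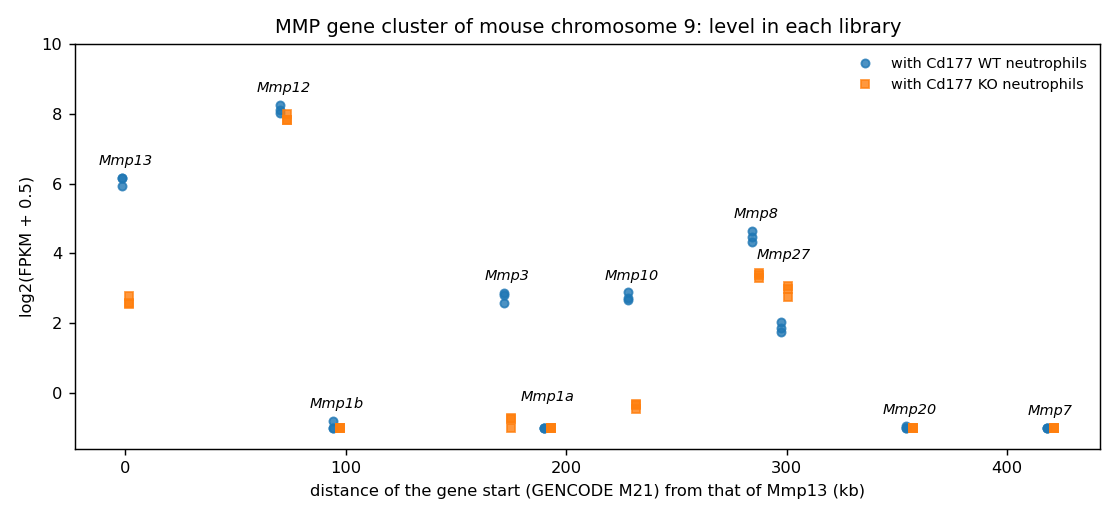
Level of the 10 MMP genes of the chromosome 9 cluster, as log2(FPKM + 0.5), against the distance of each gene's start from that of Mmp13 in kb. Circles are WT and squares KO libraries. Mmp13, Mmp3 and Mmp10 are far lower in KO, Mmp12 differs little, Mmp27 is higher and the neighbouring Mmp8 lower, and 4 genes lie at the floor of the scale in every library.

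The bases just before the starts of *Mmp13*, *Mmp3*, *Mmp10* and *Mmp12* are shown as examples, chosen after their values were seen. Among the tested genes of the cluster the first 3 had the lowest KO levels relative to WT, whereas *Mmp12* differed little. *Mmp3* and *Mmp10* were tested only through WT. All 4 hold the same short motif there, *Mmp12* only before its downstream start and not before its upstream one. Any tie of the motif to the differences was not tested. The sequences are RefSeq promoter entries (build GRCm38.p6, plus strand, which is the strand of these genes), written 5′ to 3′, and capitals mark the letters TGANTCA, the core read by AP-1 (Fos and Jun dimers), a long-known activator of MMP genes.
Mmp13, chr9:7272429-7272513, motif 35 to 29 bases before the start: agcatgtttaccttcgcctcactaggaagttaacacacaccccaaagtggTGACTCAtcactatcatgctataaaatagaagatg
Mmp3, chr9:7445726-7445821, motif 46 to 40 bases before the start: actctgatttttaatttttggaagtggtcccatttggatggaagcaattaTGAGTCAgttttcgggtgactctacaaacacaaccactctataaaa
Mmp10, chr9:7502229-7502335, motif 63 to 57 bases before the start: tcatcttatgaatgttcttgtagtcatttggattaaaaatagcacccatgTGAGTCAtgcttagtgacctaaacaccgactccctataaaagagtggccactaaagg
Mmp12, chr9:7347280-7347373, motif 44 to 38 bases before the downstream of its 2 listed starts: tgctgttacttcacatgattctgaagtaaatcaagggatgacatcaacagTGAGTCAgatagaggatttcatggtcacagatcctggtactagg

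The motif was searched on both strands of the 250 bases before each start, and it stood in 8 of the 12 promoter entries of the cluster, 1 entry for each of 8 genes, against 6.75% of 32851 mouse promoters. The cluster genes without it were *Mmp8*, which was lower in KO, and *Mmp27*, which was higher. *Mmp1a*, *Mmp1b*, *Mmp7* and *Mmp20* carried it and were at or near 0 in both groups. Of the 10 genes chosen, 8 had a promoter entry (*Mmp9* and *Mmp19* had none), and of these only *Mmp12* and *Mmp13* held the AP-1 letters. An interferon-stimulated response element (GAAANNGAAA, in 2.98% of all promoters) stood before *Mmp13* alone of the 8, on the minus strand, 146 to 137 bases before the start. The letters read by PU.1 (GAGGAA, 23.3% of all promoters) stood before *Mmp8* and *Mmp12*, and those read by C/EBP factors (TTNCNNAA, 36.8%) before *Mmp8*, *Mmp12*, *Mmp27* and *Timp1*. For *Mmp12* the PU.1 and C/EBP letters stood before the upstream start, whose entry lacks the AP-1 letters. The NF-kB motif, found in 3.9% of all promoters, was in none of the 8 windows. These are matches of letters, and binding was not measured.

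The other 6 genes are scattered over the genome: *Mmp9* on chromosome 2 (164940780 to 164955850), *Mmp14* on 14 (54431612 to 54445364), *Mmp19* on 10 (128790910 to 128800824), *Timp1* on X (20870166 to 20874735), *Timp2* on 11 (118301069 to 118355740) and *Timp3* on 10 (86300372 to 86349506). Whether fragments were counted by strand is not given in the sources used here, so genes that overlap on opposite strands could share fragments. *Mmp19* overlaps *Tmem198b*, which was at 3.46 to 4.02 FPKM in WT and 5.58 to 5.89 FPKM in KO, far under *Mmp19* and in the other direction. *Timp1* lies within *Syn1*, which was at 1.30 to 3.05 FPKM in WT and 3.52 to 4.28 FPKM in KO. *Timp2* overlaps *Cep295nl* on its own strand, at 0.809 to 1.29 FPKM in all 6 libraries. *Timp3* and *Mmp12* overlap *Syn3* and *Mmp1b*, which reached at most 0.0483 and 0.0726 FPKM. *Mmp8*, *Mmp9*, *Mmp13*, *Mmp14* and *Mmp27* overlap no annotated gene.

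The rest of the family was described as a list of 17 genes (other MMPs and *Timp4*). Of these, 7 were abundant enough to test, with *Mmp3* and *Mmp10* called lower and *Mmp2*, *Mmp11*, *Mmp16*, *Mmp17* and *Mmp23* called higher in KO, and a median log2 difference of 0.68 against 0.19 for all tested genes. For 4 of them (*Mmp3*, *Mmp10*, *Mmp16* and *Mmp17*) the mean passed 0.5 FPKM only through the group where they were high. Some difference between their groups was thus built in, and neither the count nor the median supports a direction of the list. *Mmp11*, stromelysin-3, was at 1.20, 1.44 and 0.815 FPKM in WT and 2.71, 2.44 and 2.91 FPKM in KO (log2 difference 0.97, limma adjusted p = 0.00456). The low *Mmp17* and *Mmp16*, both membrane-type, reached at most 1.26 and 0.851 FPKM, both in KO, and averaged 0.400 and 0.338 FPKM in WT. *Mmp23* was at 6.52, 5.95 and 6.07 FPKM in WT and at 10.04, 10.57 and 10.48 FPKM in KO (log2 difference 0.70, limma adjusted p = 0.000903). *Mmp2*, gelatinase A, the protease that MT1-MMP and TIMP2 activate, was at 44.1, 40.9 and 35.5 FPKM in WT and 53.4, 50.2 and 48.6 FPKM in KO. Its call was the least firm of the family, since the log2 difference of 0.34 (limma adjusted p = 0.0393) was 0.15 relative to the median of all genes and 0.11 after median-of-ratios scaling (limma adjusted p = 0.415). *Mmp2* was also not called without WT replicate 2 (limma adjusted p = 0.0811) or without KO replicate 1, 2 or 3 (limma adjusted p = 0.137, 0.106 and 0.0685).

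Proteins that activate, dock or clear MMPs, a list of 20 genes, were lower in KO for 7 and higher for 2 of the 15 tested (median log2 difference -0.17). The counts of this list and of those below stand beside 10.5% lower and 27.1% higher of all tested genes, with a median of 0.19. *Tfpi2*, a secreted inhibitor of serine proteases such as plasmin, was at 11.4, 11.6 and 13.7 FPKM in WT and 0.421, 0.112 and 0.280 FPKM in KO (log2 difference -4.06), and it reached the level for testing only through WT. The plasminogen activator axis, which makes the plasmin that activates several pro-MMPs, differed gene by gene. *Serpinb2*, an inhibitor of urokinase, was lower in KO by 2.36 on the log2 scale, from 86.8, 95.1 and 93.3 FPKM in WT to 18.3, 16.7 and 17.5 FPKM in KO (limma adjusted p = 4.16e-06). *Plaur*, the urokinase receptor, was at 92.6, 91.9 and 102 FPKM in WT and 27.9, 27.7 and 30.5 FPKM in KO (log2 difference -1.72, limma adjusted p = 2.04e-05). *Plau*, urokinase itself, was higher in KO (log2 difference 0.52, limma adjusted p = 0.00281), at 81.1 to 91.0 FPKM in WT and 119.5 to 122 FPKM in KO. *Lcn2*, whose product binds MMP9 and which is also a neutrophil granule gene, was at 2.85, 2.66 and 3.35 FPKM in WT and 17.2, 14.9 and 17.9 FPKM in KO (log2 difference 2.31, limma adjusted p = 2.16e-05). The 7 lower calls of this list became 4 without WT replicate 1 or 2 or without KO replicate 2 or 3.

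Related proteases of the ADAM and ADAMTS families, which shed surface proteins or cut proteoglycans, were a list of 16 genes, with 4 lower, 2 higher and 7 not called among 13 tested (median log2 difference 0.04). *Adam8*, a leukocyte sheddase, was at 423, 418 and 323 FPKM in WT and 150.3, 151 and 137 FPKM in KO (log2 difference -1.40, limma adjusted p = 0.000283), and *Adam12* was lower by a log2 difference of -1.48 (limma adjusted p = 0.00287). The aggrecanases split, with *Adamts4* lower (log2 difference -0.91, limma adjusted p = 0.0108) and *Adamts5* higher (1.26, tested only through its KO level). *Adamts1* was higher too (0.92, limma adjusted p = 0.00874). Of 14 matrix substrates, 13 were tested and the median log2 difference was 0.11. The only call among them was *Col3a1*, a collagen III chain, at 63.8, 61.7 and 56.4 FPKM in WT and 30.8, 30.8 and 30.7 FPKM in KO (log2 difference -0.97, limma adjusted p = 0.000197). Without WT replicate 3, 1 matrix gene was called higher, and after median-of-ratios, upper-quartile or TPM scaling 2 were called lower.

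Factors known to control MMP and TIMP genes were a list of 20, of which 19 were tested, 6 were lower, 2 higher and 11 not called in KO, with a median log2 difference of -0.22. *Cebpb* was at 431, 421 and 578 FPKM in WT and 125, 117 and 163 FPKM in KO (log2 difference -1.82, limma adjusted p = 0.00037), whereas its relative *Cebpd* was higher (1.51, limma adjusted p = 0.000594). *Ets2* was lower by a log2 difference of -1.34 (limma adjusted p = 0.00759), and *Mitf* was higher (0.57, limma adjusted p = 0.00397). Of the AP-1 subunits, *Jun*, *Junb* and *Fosl2* were lower, with log2 differences of -0.66, -0.59 and -0.69 (limma adjusted p = 0.00159, 0.00366 and 0.0162). The other tested AP-1 subunits were not called. *Jund* had a log2 difference of 0.41 (limma adjusted p = 0.055), with all KO libraries above all WT libraries, and *Fos* and *Fosl1* had -0.11 and -0.38 (limma adjusted p = 0.285 and 0.218). Over the 5 lists together, 11 of 67 tested genes were higher and 20 lower, with a median of 0.04. Over all tested genes 27.1% were higher and 10.5% lower, with a median of 0.19. Among the calls of the lists, *Mmp3*, *Mmp10*, *Mmp16*, *Mmp17*, *Tfpi2* and *Adamts5* were tested only through the group where they were high. Some difference between their groups was thus built in. The 10 genes and all lists were chosen with earlier results known, so these counts describe the genes named and were given no test of their own.

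**Figure D5:**
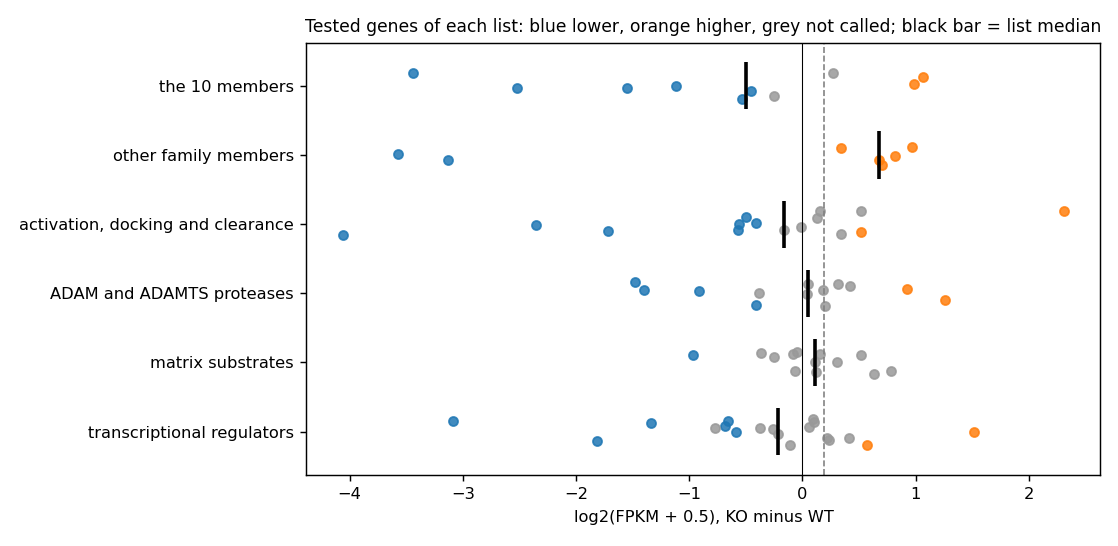
Log2 difference (KO minus WT, on log2(FPKM + 0.5)) of each tested gene among the 10 chosen genes and in the 5 lists. Blue points were called lower, orange higher and grey neither, black bars are list medians and the dashed line is the median of all tested genes. The 10 genes have a median of -0.50 and the other family members a median of 0.68. Of the 7 tested other family members, 4 were tested only through the group where they were high, so that median supports no direction.

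Among 10564 other genes that averaged 1 FPKM or more, those nearest to *Mmp13* over the 6 libraries, by Euclidean distance between centred log2(FPKM + 0.5) values, were *Ptgs2* (distance 0.193), *Tgtp1* (0.242) and *Gpr84* (0.300). *Ptgs2*, the inducible cyclooxygenase, was at 97.1 ± 2.85 FPKM in WT and 8.17 ± 0.480 FPKM in KO. The log2 differences of *Ptgs2*, *Tgtp1* and *Gpr84* were -3.49, -3.38 and -3.44, beside -3.44 for *Mmp13*. Nearness by this distance is thus mainly a like difference between the groups, and shared control of the genes was not tested. Nearest to *Mmp27* were *Zfp763* (0.112), *Dock11* (0.154) and *Arhgef6* (0.17). *Dock11* was at 3.45 ± 0.200 FPKM in WT and 7.71 ± 0.445 FPKM in KO, nearly the levels of *Mmp27*.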

How the data were processed

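The authors deposited 1 table of FPKM per mouse Ensembl gene for the 6 libraries, and each column carried the title of its sample. Per the labels, the processing tools were fastp 0.17.1, HISAT2 2.1.0, DESeq2 1.18.1 and R 3.4.3. The genome build, annotation and quantification program are not given in the sources used here. The labels and the study's methods name different extraction reagents, library kits and sequencers. FPKM corrects for length and library total only, so a change in abundant genes shifts all others. Low values were whole multiples of a step (within 0.1) in 39.6% to 43.5% of cases, so reads were not recovered and no count test was run. Any interval covers the spread of these libraries only.

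Symbols and positions came from GENCODE M21 (GRCm38), which matched 55154 of 55335 identifiers (99.7%). The 13367 genes averaging 0.5 FPKM or more entered the test, on log2(FPKM + 0.5), by limma 3.58.1 under R 4.3.3 (eBayes with trend, two-sided, no covariates), and called at a Benjamini-Hochberg adjusted p under 0.05. Ratios were tested by exact permutation in scipy 1.17.1. Promoters were RefSeq entries. Of the 16 entries checked, 12 had bases after the start that matched an annotated transcript, so some of the starts may be placed otherwise. The fit was checked on simulated data. The 10 genes and the lists were chosen with earlier results of these data known. Genes named are the 10, the chromosome 9 cluster, *Cd177*, up to 3 called rises and 3 called falls per list (*Mmp2*, *Mmp16*, the AP-1 subunits, and the marker and overlapping genes, were added after their values were seen), and the 3 genes nearest to *Mmp13* and *Mmp27*. The values of 1 gene on the list of transcriptional regulators are not reported here. Alternatives were other pseudocounts, filters, scalings and variance estimates, the replicate block, each library left out, and the study's threshold. Replicate numbers are shared by the groups, but same-numbered libraries had correlated deviations of 0.116, 0.036 and 0.264, so the numbers were not taken as pairs.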

Additional observations from a re-analysis of the deposited data

How the results depend on the processing

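The 8 calls among the 10 genes kept their direction and their side of the threshold under all 19 alternatives that used an adjusted p. With the study's threshold *Mmp14*, *Timp2* and *Timp3* missed the fold change of 2, leaving 1 of the 10 genes higher. No difference of the 10 genes changed sign under any alternative run. The log2 differences ranged from -3.66 to -3.34 for *Mmp13*, from -2.75 to -2.50 for *Mmp19* and from -1.78 to -1.39 for *Timp1*. *Mmp12* was called after median-of-ratios, upper-quartile and TPM scaling, under the replicate block and without both libraries numbered 3, an alternative chosen after seeing the data, and *Mmp9* under the last 2 of these. The causes were not tested. Over all tested genes, the higher and lower calls numbered 3619 and 1408, 2057 and 2259 after median-of-ratios scaling, 2122 and 2152 after upper-quartile scaling, and 893 and 592 with the study's threshold. A filter at a mean of 5 FPKM, which tests fewer genes, left 1756 higher calls, and 6 higher calls in the 5 lists together. Those lists held 20 higher calls without both libraries numbered 3, and 3 higher and 10 lower calls with the study's threshold. With the replicate block 4253 genes were higher and 1681 lower. Of the matrix substrates, 4 were higher and 3 lower with the replicate block, and 4 higher and 5 lower without both libraries numbered 3, against 0 and 1. WT replicates 1 and 2 correlated best with KO replicates 2 and 1, at 0.160 and 0.121, and only the libraries numbered 3 with their own number. Leaving out 1 library gave 2420 to 4259 higher calls. With values of FPKM and no counts, genes near 0 such as *Mmp3* in KO have no known counting error.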

Other observations

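Markers of other matrix-degrading or matrix-making cells ranged from sparse to abundant, and those tested were not all of one direction. Over all tested genes, 10.5% were called lower and 27.1% higher in KO. Of 8 osteoclast markers, 5 were tested and 3 were lower in KO, with a summed level of 217 to 232 FPKM in WT and 178 to 187 FPKM in KO. *Ctsk*, the collagen-cutting cathepsin K, was at 38.2, 39.1 and 43.5 FPKM in WT and 16.0, 17.1 and 20.7 FPKM in KO (log2 difference -1.15, limma adjusted p = 0.000476), and *Calcr* was listed at 0 throughout. Of 8 fibroblast markers, 7 were tested and 3 were lower, and the list summed to 417 to 597 FPKM in WT and 493 to 555 FPKM in KO. The most abundant were the collagen genes *Col1a1*, at 228 to 361 FPKM in WT and 292 to 344 FPKM in KO, and *Col1a2*, at 113 to 142 and 155 to 165 FPKM. Neither was called (log2 differences 0.11 and 0.31, limma adjusted p = 0.675 and 0.0578). The 3 lower were *Col3a1*, *Pdgfrb* (log2 difference -0.68) and *Dcn*. *Dcn*, the matrix proteoglycan decorin, was weak, at 2.48, 2.49 and 3.48 FPKM in WT and 1.06, 1.03 and 1.23 FPKM in KO. *Pdgfra* and *Thy1* were not called (log2 differences 0.12 and 0.06), and the median of the 7 tested was 0.06. *Thy1* averaged 0.496 FPKM in WT and 0.515 FPKM in KO, and so was tested only through KO. Of 5 endothelial markers, 2 were tested. *Kdr*, which averaged 0.913 FPKM in WT and 0.186 FPKM in KO, was lower. It reached the level for testing only through WT, so that some difference between its groups was built in. Of 6 spinal cord markers, 1 was tested and none was called. Of 5 lymphocyte markers, only *Ighm*, the immunoglobulin mu chain, was abundant enough to test, and it was at 0.390, 0.293 and 0.0573 FPKM in WT and 9.66, 9.43 and 10.5 FPKM in KO (log2 difference 3.82), reaching the level for testing only through KO. None of 5 dendritic cell markers reached the level for testing. The part of other cell types in the values of the MMP and TIMP genes was not tested.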
